A study of Oryctolagus cuniculus with 54 samples.

Results

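Late alveolarization in the rabbit lung was followed here through 150 genes whose counts stood highest on post-conceptional days 37 and 42, the last 2 time points of the term series. Alveolarization is the phase in which septa grow out of the saccule walls and divide them into alveoli, and the capillary bed of these septa is remodelled. It goes on after birth in the rabbit as in humans, so a pup delivered early passes through part of it outside the uterus. The question put to these genes was whether preterm pups had reached the late alveolar level by day 7 after birth.

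The members were chosen by their measured values in the third of 3 sequencing runs, so those values are given as a description without a test. A group value was the mean of log2(CPM + 1) over its libraries, where CPM is the count of a gene scaled to a library total of 1000000. A gene needed a T37 value of at least 2.6 and a T42 value within 0.5 of it. Of 29587 identifiers in the table, 22968 had a count in any library and 8078 met both conditions. These were ranked by the lower of T37 and T42 minus the highest of F20, F23, F28, T31 and T35, called the margin below, and the top 150 were kept. The last member had a margin of 0.310 and the next gene outside 0.309, so the edge of the list falls in a continuum. A further 63 genes had a margin as large but a T37 value under the minimum, and 19 failed on the difference between T42 and T37.

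All animals were New Zealand White rabbits, and RNA came from homogenized lung (the whole lung at F20 and F23, the right lung later), each pup of a group having a different dam. F20, F23, F25, F27, F28 and F29 were fetuses taken by C-section on that day of gestation, with 4, 4, 3, 3, 3 and 3 animals. The term groups T31, T35, T37 and T42 were pups born naturally on day 31 and left with their mothers in room air, with 6, 3, 4 and 3 animals at 0, 4, 6 and 11 days after birth. P0, P3 and P7 were preterm pups delivered by C-section on day 28, kept in incubators at 21% oxygen and fed a milk replacer, with 3 animals each at 0, 3 and 7 days. P7 therefore shares its 35 post-conceptional days with T35, while its 7 days after birth lie nearest to the 6 days of T37. Delivery, feeding and housing differed together between preterm and term pups and cannot be told apart. Fetal lungs were harvested at once, whereas P0 lungs were taken an hour after delivery.

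The 45 animals gave 54 libraries with 5771693 to 8073755 counts each. Run 1 held 18 libraries from F25 to T35, run 2 held 12 libraries of F28, T35, P0, P3 and P7, and run 3 held 24 libraries. T37, T42, F20 and F23 were sequenced in run 3 alone, and a single P7 pup (animal 1) was read there. The counts come from 3′ end libraries, in which a transcript gives about 1 read whatever its length. In whole lung tissue, more RNA per cell and more cells of a type cannot be told apart. The table names genes by Ensembl identifiers that the files do not pair with gene names, so the members are described by their place in the ranking, 4 of them with their identifier, and lung marker genes could not be looked up.

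These genes were not switched on late in the strict sense. A count was present in all 15 earlier libraries of run 3 for 142 of the 150 members, and 0 members had every earlier group below 1 on the log2(CPM + 1) scale. The level over the members rose by degrees. The median over the 150 members, averaged over animals, was 2.94 ± 0.21 (SD, n = 4) at F20, 2.99 ± 0.09 (n = 4) at F23, 3.16 ± 0.17 (n = 2) at F28, 3.55 ± 0.12 (n = 3) in the T31 animals and 3.82 ± 0.19 (n = 2) in the T35 animals. It then stood at 4.48 ± 0.18 (n = 4) at T37 and 4.58 ± 0.05 (n = 3) at T42. The 7 late libraries lay between 4.22 and 4.64, above the 3.95 of the higher T35 library. All of these values entered the choice of members.

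**Figure D1:**
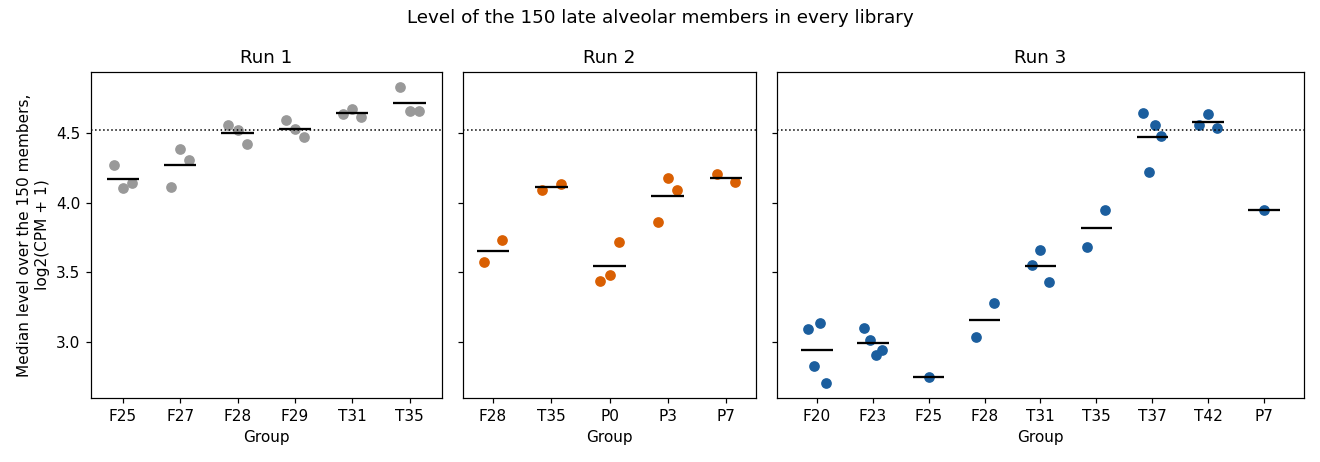
Median of log2(CPM + 1) over the 150 members in every library (points) with the group mean (bar), in 1 panel per sequencing run; the dotted line is the mean of the 7 T37 and T42 libraries. In run 3 the late libraries stand apart at 4.22 to 4.64 and P7 animal 1 lies at 3.95, whereas the T31 and T35 libraries of run 1 lie above the dotted line at 4.62 to 4.84.

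The late step was modest for most members. The difference between the mean of T37 and T42 and T35 had a median of 0.68 on the log2(CPM + 1) scale, a 1.61-fold ratio, with quartiles of 0.52 and 0.88. It exceeded 1 in 27 members and 1.5 in 5. The margin over the highest earlier group had a median of 0.44 and exceeded 1 in 6 members. T35 was the highest earlier group for 77 members, T31 for 39, F20 for 13, F23 for 11 and F28 for 10. In 29 members (19.3%) every T37 and T42 library lay above all 15 earlier ones, against 0.446% of the 8078 genes; the rule used these values and nothing is read from the difference. The members ran from 5.02 to 2137 CPM in the late libraries with a median of 22.1 CPM, and together took 1.32% of the late counts and 0.79% of the T35 counts of run 3. Scaling by TMM lowered T37 and T42 against T35 by 0.10 at the median of the 8078 genes, and left a median step of 0.59 in the members.

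The members reached T35 along different courses, grouped here after their values were seen. In 50 members T35 stood at least 1 above F20 (rising course), with medians of 1.87 at F20, 3.02 at F28 and 3.88 at T35, and then 4.51 at T37 and 4.84 at T42. In 59 members T35 and F20 lay within 0.5 of each other (level course), with medians of 4.04 at F20 and 4.28 at T35 before 5.0 at both T37 and T42. A further 34 members rose by less than 1 and 7 fell. The courses compare F20 with T35 only and say nothing of the groups between them.

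The level of the members depended on the sequencing run, and this touches every value above. F25 animal 13 entered neither the rule nor any contrast and was read in runs 1 and 3. Its members were lower in run 3 by a median of 0.76, and 114 of 150 (76.0%) were lower there, against a median of 0.04 and 51.8% over the 8078 genes. The F28 and T35 animals read repeatedly showed the same direction, although the rule used their run 3 values, except for F28 animal 9, which had none. Their members fell by medians of 0.37 to 0.49 from run 1 to run 2, a pair of runs the rule did not use, where the 8078 genes moved by 0.05 to 0.09. From run 2 to run 3 the members of F28 animal 2 and T35 animals 6 and 11 fell by a further 0.25 to 0.39.

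In run 1, where the members read higher, a part of them stood at or above the run 3 level of T37 and T42 in younger animals. The mean of T35 animals 6 and 11 was at or above the mean of T37 and T42 in 65 members when read in run 1, in 19 when read in run 2 and in 0 when read in run 3. For F28 animal 2 the same counts were 60, 18 and 0. The 0 at T35 in run 3 was fixed by the rule, since these 2 animals were the whole T35 group there. F28 animal 2 was 1 of 2 F28 libraries in run 3, so the rule constrained its 0 as well. Across the 8078 genes, the run 1 minus run 3 difference in F25 animal 13 and the T37 and T42 minus T35 difference in run 3 had a Pearson r of 0.47, and 0.46 without the members. No library is shared between these differences. Whether a factor that separates the runs also separates the T37 and T42 libraries from the others of run 3 was not tested, since T37 and T42 were read in no other run.

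**Figure D2:**
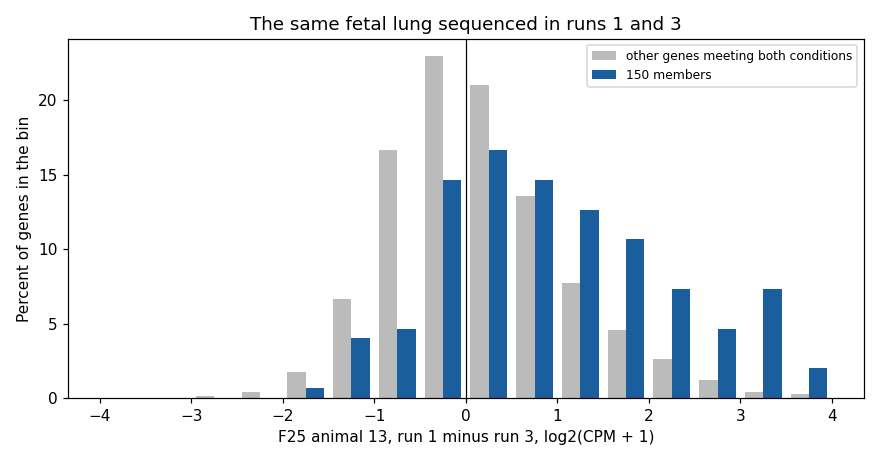
Difference in log2(CPM + 1) between runs 1 and 3 for the same F25 lung (animal 13), as the percent of genes in bins of 0.5, for the 150 members and the other genes that met both conditions; values beyond 4 stand in the outer bins. The other genes centre near 0, while the members spread to the right with a median of 0.76.

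The split between courses was also a split in run dependence. The run 1 minus run 3 difference of F25 animal 13 had a median of 0.26 in the 50 members with a rising course and of 1.39 in the 59 with a level course. In 47 members this difference was under 0.5 in size, and these are given beside the full list below as the run-stable members. Their medians in run 3 were 2.90 at F20, 3.83 at T35, 4.52 at T37 and 4.83 at T42, with the late step that the rule requires of every member.

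The first member of the ranking shows the dependence on the run in a single gene. ENSOCUG00000031584 stood at 10.7, 25.6, 23.5 and 3.72 CPM in the 4 T37 animals and at 15.2, 9.66 and 7.75 CPM in the 3 T42 animals of run 3. T35 animals 6 and 11 had 4.35 and 0.80 CPM there, and the 13 other libraries used as earlier groups had 0.55 to 2.48 CPM. Its highest T35 library thus overlapped the lowest T37 library. In run 1 the same gene had 22.5 to 39.3 CPM at F25, 10.2 to 29.9 CPM at F27 and 5.81 to 19.0 CPM at T35, with its highest values in the youngest lungs. F25 animal 13 gave 22.5 CPM in run 1 and 2.79 CPM in run 3. P7 animal 1 had 1.93 CPM in run 3, and P7 animals 3 and 4 had 0.86 and 1.55 CPM in run 2.

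ENSOCUG00000034082, in position 18, rose at T35 in every run, with T35 animals 6 and 11 read in each of them. It had 0 to 0.51 CPM in the 12 fetal libraries of run 1, 0.30, 1.52 and 0.61 CPM in the T31 animals, and 11.5, 17.2 and 8.16 CPM in the T35 animals. In run 3 it reached 25.8, 5.35, 40.6 and 30.3 CPM at T37 and 23.0, 27.0 and 22.2 CPM at T42, after 20.3 and 6.54 CPM at T35 and at most 0.93 CPM before. T37 animal 27 lay below both T35 libraries and the 6 other late libraries above them. F25 animal 13 had 0 and 0.80 CPM in runs 1 and 3.

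**Figure D3:**
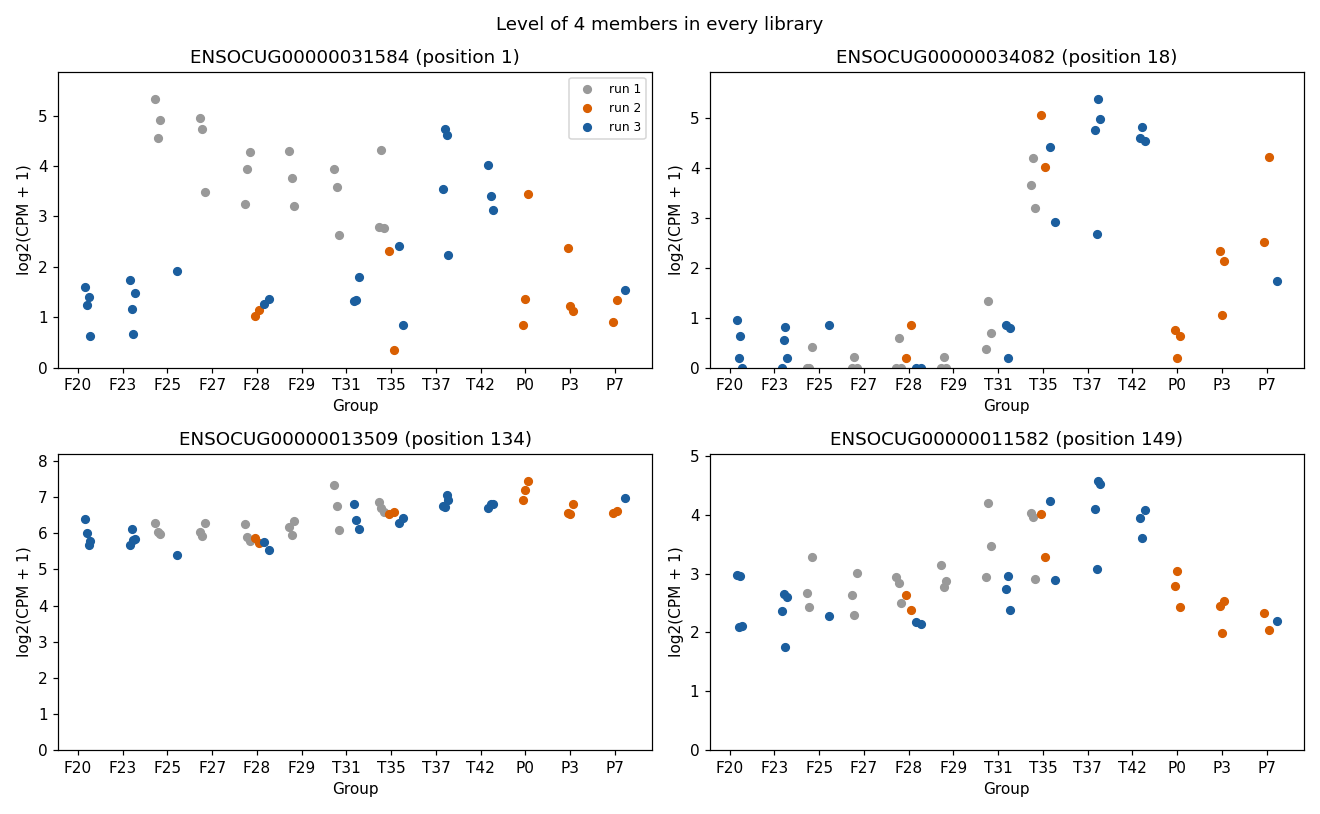
Level of 4 members in every library on the log2(CPM + 1) scale by group, coloured by sequencing run. ENSOCUG00000031584 is higher in run 1 than in runs 2 and 3 at the same ages, while ENSOCUG00000034082 leaves the floor at T35 in all 3 runs and is lower in P7 animal 1 (2.31 CPM) than in the T37 and T42 animals.

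The earlier part of the rise could be tested in libraries that the rule did not use. In run 1, T35 was compared with F28 by edgeR's quasi-likelihood test over 14600 genes, calling a gene at more than a 2-fold change and an adjusted p of at most 0.05. T35 animals 6 and 11 and F28 animals 2 and 7 also gave run 3 libraries to the rule, so the animals are not new even though the libraries are. Of the 150 members, all tested, 25 (16.7%) were higher at T35 and 0 lower, against 2.67% and 2.13% of all genes tested. Their log2 fold changes ran from 1.09 to 6.23. The median over the members was 0.26, and over all genes 0.01. With the rising course 20 of 50 members were higher, and with the level course 4 of 59. The courses were set by T35 minus F20 in run 3, where T35 was animals 6 and 11. This contrast was therefore built in to a degree, and nothing is read from it. Among the 47 run-stable members 13 were higher.

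Run 2 gave the same comparison from 2 F28 and 2 T35 libraries, together with the preterm groups in a fit of 12 libraries and 13791 genes. T35 animals 6 and 11 and F28 animal 2 also gave run 3 libraries to the rule. Here 23 members (15.3%) were higher at T35 and 0 lower, against 2.36% and 1.05% of all genes, with a median log2 fold change of 0.46 and 120 of 150 members above 0. The number fell to 10 without F28 animal 2, to 11 (10 higher and 1 lower) without F28 animal 9, to 13 without T35 animal 6 and to 14 with limma-voom. Over all genes the share called in either direction fell as well, from 3.42% to 1.77%, 1.68%, 2.16% and 2.76%. Both runs called 16 of these members, but they are not independent. F28 animals 2 and 9 and T35 animals 6 and 11 were read in both. Among the run-stable members 10 of 47 were called.

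The shorter steps within these 7 days gave fewer calls. From F29 to T31 in run 1, 0 members were called in either direction, against 0.0342% higher and 0.00685% lower over all genes by the edgeR test. At an unadjusted p under 0.05, 30 members (20.0%) were higher and 4 (2.67%) lower, against 8.32% and 6.05% of all genes. DESeq2 called 5 members (0.945% of all genes), and 9 were called without T31 animal 15 (2.6% of all genes). From T31 to T35, 5 members (3.33%) were higher and 0 lower, against 0.904% and 0.37%. The number called ran from 0 without T31 animal 1 (0.186% of all genes) to 9, 7 higher and 2 lower, without T31 animal 15 (2.43%). ENSOCUG00000034082 was 1 of the 5, with a log2 fold change of 3.97 ± 0.67 (SE, edgeR adjusted p = 0.0095, n = 3 animals each).

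In preterm pups a part of the members rose during the first week. In run 2, 27 members (18%) were higher in P7 than in P0 and 0 lower, against 3.09% and 1.17% of all genes, with 2 P7 and 3 P0 animals. The log2 fold changes of the 27 ran from 1.00 to 4.49 and had a median of 2.24. Over the 150 members the median was 0.40, with 102 above 0, against -0.01 over all genes. Without P7 animal 4 the number was 16 (15 higher and 1 lower), while the share of all genes called in either direction fell from 4.26% to 2.81%. The rising course held 16 of the 27 and the level course 4, and 11 of the 47 run-stable members were called. The preterm groups entered no part of the rule.

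Much of this rise was already seen at P3. The median over the members, averaged over animals, was 3.55 ± 0.15 (SD, n = 3) at P0, 4.05 ± 0.16 (n = 3) at P3 and 4.18 ± 0.04 (n = 2) at P7 in run 2. From P3 to P7, 0 members were called by edgeR in either direction, against 0.0363% higher and 0.00725% lower over all genes. At an unadjusted p under 0.05, 20 members (13.3%) were higher and 2 (1.33%) lower, against 5.18% and 4.43% of all genes. DESeq2 called 1 member and 0.413% of all genes.

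ENSOCUG00000034082 had the largest log2 fold change of the 27. It stood at 0.67, 0.14 and 0.55 CPM in the P0 animals, 4.07, 1.08 and 3.37 CPM in the P3 animals and 4.74 and 17.6 CPM in the P7 animals. P7 exceeded P0 by 4.49 ± 0.78 (log2, SE, edgeR adjusted p = 0.0042), and the call was lost without P7 animal 4 (3.21) and with limma-voom (4.27). The T35 animals had 32.2 and 15 CPM in run 2. P7 minus T35 was -1.20 ± 0.63 (SE, edgeR adjusted p = 0.51), so a difference was not detectable with 2 animals a group. In run 3 P7 animal 1 had 2.31 CPM, under the lowest late library of 5.35 CPM.

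The preterm and term changes of most members had the same direction. Both P7 against P0 and T35 against F28 were above 0 in 88 members and below 0 in 16 (69.3% in all), from libraries of the same run that share no animal, against 59.0% of all genes tested with the same sign. Taken singly, 68% and 80% of members were above 0, which by itself gives many shared signs. The Pearson r across the 150 members was 0.55 and Spearman's rho 0.40, against 0.31 and 0.27 over all genes, the members not being independent of each other. Of the 27 members called in preterm and the 23 called in term pups, 16 were called in both, 59.3% of the former and 69.6% of the latter. Over all genes 171 were higher in both, 40.1% of the 426 higher in preterm and 52.5% of the 326 higher in term pups. The difference between the changes was tested as an interaction. It called 0 members with a higher change in preterm than in term pups and 1 with a lower change, against 0.0725% and 0.0653% of all genes. The median over the members was -0.09.

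**Figure D4:**
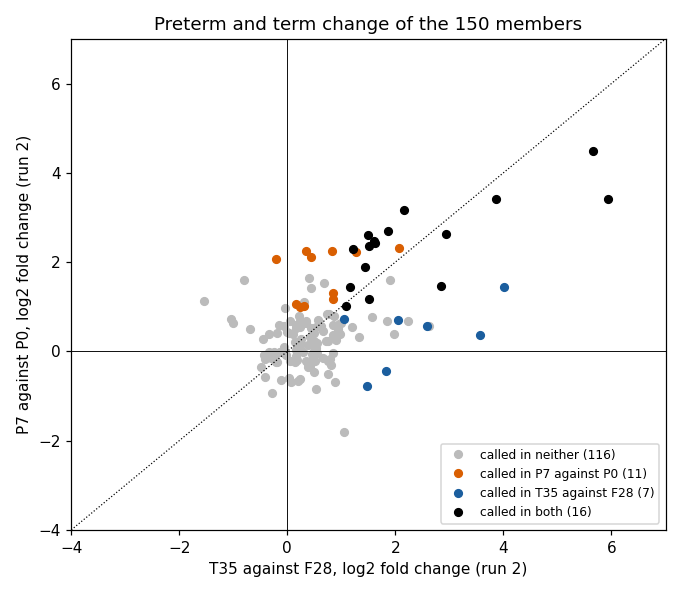
Log2 fold change of the 150 members from F28 to T35 (horizontal) and from P0 to P7 (vertical) in the run 2 fit, coloured by whether edgeR called them; the dotted line marks equal change. Of the 34 members called in at least 1 of the comparisons, 16 were called in both, 11 in P7 against P0 alone and 7 in T35 against F28 alone.

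The member called in the interaction was ENSOCUG00000013509, in position 134. It had 119, 146 and 174 CPM in the P0 animals, 93.8, 92.2 and 112 CPM in the P3 animals and 93.4 and 97.9 CPM in the P7 animals. The F28 animals had 57.8 and 52.3 CPM and the T35 animals 91.4 and 94.4 CPM. P0 thus stood above every F28 and T35 library of the run. P0 and F28 share their 28 days since conception, but P0 lungs were taken 1 h after delivery and F28 lungs at once. The preterm and term changes therefore start from unlike baselines. The preterm minus term change was -1.56 ± 0.22 (log2, SE, edgeR adjusted p = 0.024). The direction held in every alternative run, but the call was lost when any 1 of the P7, F28 or T35 animals was left out and in the fit of 21 libraries with the run. In run 3 P7 animal 1 had 124 CPM, inside the range of 103 to 132 CPM of the T37 and T42 animals. T31 animal 4, with 112 CPM in run 3, lay inside this range too.

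Compared with term pups of the same age since conception, P7 lay close to T35 at the median of the members. In run 2, 4 members (2.67%) were higher in P7 and 1 lower, against 0.435% and 0.058% of all genes, and the median over the members was 0.01. Both T35 animals of this run, 6 and 11, also set the T35 values of run 3 that the rule held below T37 and T42. The choice of members thus favoured genes with low T35 values in these same animals. The calls depended on the animals, with 0 without T35 animal 6, 1 (higher) without P7 animal 3 or P7 animal 4 and 2, both lower, without T35 animal 11. Over all genes the share called in these fits was 0.0439%, 0.249%, 0.212% and 0.19%, from 0.493%. With 21 libraries and the run in the model, 0 were called, against 0.261% of all genes. Run 3 gave a median P7 minus T35 difference of 0.11 for its 1 animal, with quartiles of -0.27 and 0.49.

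The 4 members higher in P7 than in T35 were in positions 17, 51, 118 and 135, and 0 of them were called without T35 animal 11 or without T35 animal 6. The member in position 51 had 21.3 and 23.8 CPM in the P7 animals, 4.26 and 5.99 CPM in the T35 animals and 3.32 to 5.13 CPM at P0. In run 3 it stood at 23.8 CPM in P7 animal 1, above the 5.20 to 13 CPM of the T37 and T42 animals. The member in position 17 had 174 and 99.2 CPM at P7 and 47.2 and 56.4 CPM at T35. Its 81.9 CPM in P7 animal 1 lay inside the late range of 41.6 to 92.7 CPM. The member in position 135 had 50.3 and 38.2 CPM at P7 and 18.8 and 19.8 CPM at T35, and its 31.0 CPM in P7 animal 1 lay above the late range of 14.5 to 25.0 CPM. The member in position 118 rested on low T35 values of 1.38 and 1.11 CPM. For these 4 genes, then, P7 animal 1 stood inside or above the late range in run 3, with 11.2 CPM against 10.5 to 15.6 CPM for position 118. For each of them an earlier library of run 3 lay in that range too, so it did not set the late groups apart. T31 animal 11 had 50.8 CPM (position 17), T31 animal 18 had 8.05 CPM (position 51) and T35 animal 11 had 17.9 CPM (position 135). For position 118, F20 animal 1 had 12.4 CPM and T31 animals 4 and 18 had 19.7 and 13.3 CPM.

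The member lower in P7 than in T35 was ENSOCUG00000011582, in position 149 and so near the edge of the list. It had 4.02 and 3.10 CPM in the P7 animals, 5.94, 7.21 and 4.43 CPM in the P0 animals and 15.3 and 8.77 CPM in the T35 animals. P7 lay below every T35 and P0 library. The log2 difference from T35 was -1.89 ± 0.36 (SE, edgeR adjusted p = 0.042), and the call was lost without either P7 animal, without T35 animal 6 and in the fit of 21 libraries. In run 3 P7 animal 1 had 3.60 CPM, against 6.40 and 17.9 CPM at T35, 16.3, 7.46, 22.9 and 22 CPM at T37 and 14.4, 11.2 and 15.9 CPM at T42.

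The late alveolar level itself was approached by P7 animal 1 in a minority of members. A member was counted as past the midpoint when a library exceeded the middle between the T35 mean and the mean of T37 and T42. P7 animal 1 was past it in 46 of 150 members (30.7%). The T37 libraries were past it in 68.0% to 90.0% of members, the T42 libraries in 82.7% to 94.0% and the T35 libraries in 8.67% and 10%, but these libraries chose the members. When each was left out and the members were chosen anew, the share in the library left out was 52.7% to 79.3% at T37, 72.7% to 87.3% at T42, 31.3% and 32.0% at T35, 23.3% to 38.0% at T31 and 8.0% and 8.67% at F28. P7 animal 1, with its 30.7%, lay inside the range of T31 and T35 and below each T37 and T42 library treated in that way.

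**Figure D5:**
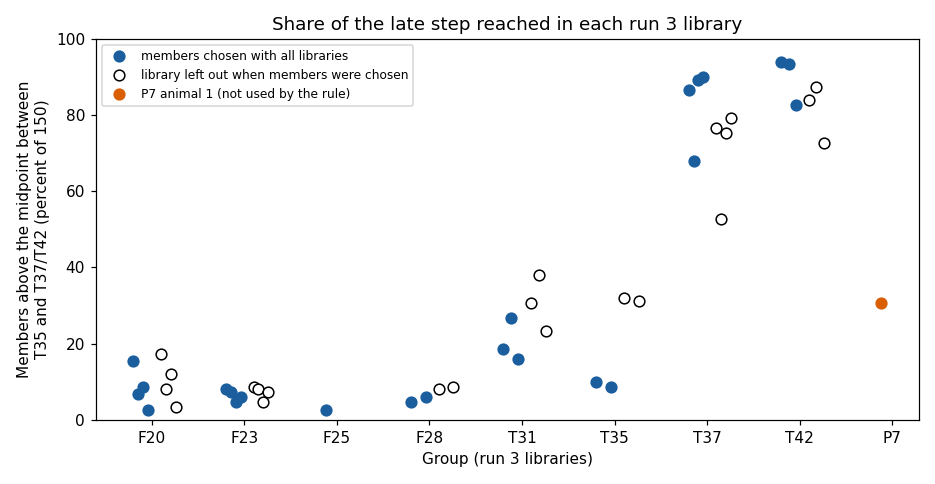
Percent of the 150 members above the midpoint between T35 and T37/T42 in each run 3 library (filled), and in a library left out while the members were chosen again (open). P7 animal 1 at 30.7% lies beside the open T35 points at 31.3% and 32.0%, below the open T37 and T42 points at 52.7% to 87.3%.

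Seen member by member, P7 animal 1 was at or above the mean of T37 and T42 in 24 members and below the T35 mean in 58. It reached at least the lowest of the 7 late libraries in 60 members, and in 114 it did not exceed the highest of the 15 earlier libraries. Among the 47 run-stable members 16 were past the midpoint (34.0%), and among the 103 others 30 (29.1%). With the rising course 19 of 50 were past it, and with the level course 15 of 59.

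The P7 animals of run 2 were set against the T35 animals of their own run. They exceeded the T35 mean by more than 0.5 of the run 3 step in 34.0% (animal 3) and 31.3% (animal 4) of members. The P3 animals did so in 19.3% to 25.3%, the P0 animals in 3.33% to 18.7% and the T35 animals themselves, which set the mean, in 8.0% and 10%. This measure sets a step of run 3 beside levels of run 2. With the T35 animals of run 3 as the baseline, which compares libraries across runs, the mean share of both P7 animals moved from 32.7% to 57.0%, so for these animals the minority depends on the baseline. The P7 minus T35 differences of the 2 runs had a Pearson r of 0.76 over the members, with the same T35 animals in both.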

How the data were processed

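Lung RNA of 45 rabbits was measured in 54 QuantSeq FWD 3′ libraries, and each was assigned to its group, animal and run from the sample labels (0 columns unassigned). Per the labels and the study's methods, the authors trimmed reads with BBduk, aligned them to OryCun2.0 with STAR, and obtained gene counts with HTSeq-count on an Ensembl annotation, with a script of their own for 3′ ends outside it; versions are not given in the sources used here. The deposited table holds these raw counts, and 0 libraries were identical. The animal was the replicate, and the pups of a group came from different dams.

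CPM was computed from column totals with a pseudocount of 1 on the log2 scale. The members and the lists were chosen with earlier results of these data known. Tests used edgeR 4.0.16 in R 4.3.3 (quasi-likelihood, TMM, at least 0.5 CPM in at least 3 fitted libraries, Benjamini-Hochberg adjustment over all genes tested, fold change above 2 and adjusted p at most 0.05), in run 1 (18 libraries) and run 2 (12 libraries) separately. All 150 members passed the filter. Standard errors were derived from the test statistic. Counts were simulated for the 2 run-specific comparisons, with 200 changed genes whose changes were all larger than 2-fold. For P7 against P0 (13493 genes) 67.5% were recovered with 6 false calls. For T35 against F28 in run 1 (14310 genes) 65.0% were recovered with 2 false calls. The upper quartile of the members for P7 against P0 was 0.82 (log2), and these shares do not give the recovery of changes that small. Alternatives were DESeq2 1.42.0, limma-voom (limma 3.58.1), RLE factors, no filter, the adjusted p alone, 21 libraries with the run in the model, a block by animal number, TMM-scaled CPM and leaving out each animal. Figures were drawn with Python 3.11 tools. Held-out libraries, the split by course and the run-stable members were chosen after seeing the data.

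Named genes were to be members with a symbol in the reference table: the first 20 in rank, those on the 24 gene lists, and those with the largest calls. That table (RefSeq) carried 0 Ensembl identifiers, so no symbol, gene list or marker could be matched. At most 2 identifiers in each direction were printed instead: the first in rank, the largest rise from P0 to P7, and the single member called lower in P7 than in T35 and in the interaction. Other members called in P7 against T35 are given by position. Counts of this depth (5771693 to 8073755 per library) leave genes under 1 CPM with few reads, and without molecular identifiers these reads may repeat a molecule. Sequences were not used here.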

Additional observations from a re-analysis of the deposited data

Results flagged for a closer look

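T37 animal 27 stood apart among the 4 T37 libraries in the share of members above the midpoint between T35 and T37/T42. It was above the midpoint in 68.0% of members, and the other T37 animals in 86.7% to 90.0%. Its median member level of 4.22 was also the lowest of the late libraries. The library was 1 of those that chose the members, and without it 123 of the 150 members were kept. An outlier was looked for in 18 groups of libraries, of which chance flags about 1 in 20, and this was the 1 that exceeded the limit.

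ENSOCUG00000013509 changed differently in preterm and term pups, with a preterm minus term change of -1.56 (log2) in the interaction of the run 2 fit. It fell from P0 to P7 by 0.68 on the log2 scale and rose from F28 to T35 by 0.88. With 2 P7, 2 F28 and 2 T35 animals, the call was lost whenever 1 of these animals was left out, with values of -1.49 to -1.62.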

How the results depend on the processing

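The list of members changed in part with its settings. Of 150 members, 121 were kept with TMM-scaled CPM, 143 with a pseudocount of 0.5 and 109 without the T37 minimum. With F25 among the earlier groups 146 were kept. When 1 library was left out 122 to 149 were kept, with all other libraries shared between the lists. The share of members past the midpoint in P7 animal 1 (30.7%) was 33.3% against T37 alone and 28.7% with TMM scaling. For P7 animals 3 and 4 the mean share of 32.7% moved to 29.0% with TMM-scaled CPM and to 57.0% when the run 3 T35 animals were the baseline, a comparison across runs. The limits are the few animals (2 P7, 2 F28 and 2 T35 in run 2, 1 P7 in run 3) and the reading of T37 and T42 in a single run.

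For P7 against P0 and T35 against F28 in run 1, most alternatives called numbers within 1.5 times of those reported. Of the 11 alternatives for T35 against F28 in run 2, 6 did so and 5 called fewer members. For P7 against T35 4 of 11 alternatives did so, for T35 against T31 4 of 11 and for the interaction 6 of 15. Agreement at 0 carries little. Leaving out 1 animal gave 16 to 24 for P7 against P0, 0 to 0 for P7 against P3, 0 to 2 for P7 against T35, 10 to 19 for T35 against F28 in run 2, 0 to 1 for the interaction, and 21 to 28, 0 to 9 and 0 to 9 for T35 against F28, T35 against T31 and T31 against F29 in run 1. Over all genes the shares, in this order, were 2.81% to 3.85%, 0% to 0.0805% and 0.0439% to 0.249%. For T35 against F28 in run 2 and the interaction they were 1.68% to 2.16% and 0% to 0.204%. In run 1 they were 3.18% to 5.44%, 0.186% to 2.43% and 0% to 2.6%. DESeq2 called 1 for P7 against P3, 6 for the interaction, 8 for T35 against T31 and 5 for T31 against F29. It called 0.413%, 1.18%, 2.27% and 0.945% of all genes in these comparisons. Without a filter on low counts 4 were called for P7 against P3, 11 for P7 against T35, 12 for the interaction and 3 for T31 against F29, while the share called over all genes rose to 0.816%, 1.22%, 1.42% and 0.216%, from 0.0435%, 0.493%, 0.138% and 0.0411%. The adjusted p alone called 39 (30 higher and 9 lower) for T35 against F28 and 10 (7 higher and 3 lower) for T35 against T31 in run 1. The share called over all genes rose to 10.7% and 2.07%, from 4.80% and 1.27%. With 21 libraries and the run in the model, 0 were called for P7 against T35 and 0 for the interaction, against 0.261% and 0.0344% of all genes. Limma-voom called 14 for T35 against F28 in run 2, against 2.76% of all genes. Restricting to the 47 run-stable members left 11 for P7 against P0, 2 for P7 against T35, 10 and 13 for T35 against F28 in runs 2 and 1. The cause of these differences was not tested, other than the fewer members or animals.

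The animal numbers were shared between preterm groups, but same-numbered animals deviated together only weakly (r from -0.14 to 0.15), so the numbers were not taken as pairs. With the replicate block, 21 members were called for P7 against P0 and 0 for P7 against P3, against 3.08% and 0% of all genes. For ENSOCUG00000034082 the rise from P0 to P7 was 4.27 with limma-voom and not called. In the alternatives run for the 3 genes given by identifier with a tested change, 0 values changed sign.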
